A study of Homo sapiens with 4 samples.

Results

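MYC and 7 neighbors on the long arm of human chromosome 8, at band 8q24, were followed in RNA sequencing of MDA-MB-231 cells, an established human line of triple-negative breast cancer. These 8 genes (MYC, PVT1, CASC11, CASC8, CCAT1, CASC19, PCAT1 and POU5F1B) were taken by name from a table of 39259 genes, after Entrez IDs had been paired with symbols, and all 8 were found on chromosome 8. The members were chosen by name with their FPKM differences between KO and WT already known, so those differences are given as a description, with no test. The study compared 2 libraries from cells labelled as a knockout (KO) of mdig, a JmjC-domain oxygenase encoded by RIOX2, with 2 libraries from wild-type (WT) cells of the line. Both groups grew in DMEM/F-12 with fetal bovine serum, and no treatment or time point is given. The labels do not say how the knockout was made, whether it is 1 clone, or whether replicates were separate cultures, so each p-value reflects variation among these 4 libraries alone, which could be purely technical.

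RIOX2 measured 9.23 and 9.82 FPKM (fragments per kilobase of gene length scaled to assigned fragments) in the libraries labelled KO, against 8.60 and 8.24 FPKM in WT. Its transcript was therefore not lower under the KO label (log2 difference 0.16, limma adjusted p = 0.0546; it passed as a rise in 5 of 12 alternatives, with the lowest adjusted p of 0.0131 without WT replicate 1), the RNA level leaves the label unchecked, and every direction below is between libraries labelled KO and WT. Assigned fragments numbered 48768932 and 52163811 in KO replicates 1 and 2, against 45173267 and 22503981 in WT replicates 1 and 2. Of the line's defining markers, the intermediate filament gene VIM measured 2000 and 2000 FPKM in the libraries labelled KO and 2280 and 2390 FPKM in WT, while the hormone receptor genes ESR1 and PGR had at most 1 fragment in any library. CAV1, also listed as high, went the other way, at 326 and 335 FPKM in the libraries labelled KO and 216 and 223 FPKM in WT. CD44 was higher by 0.18 (log2, limma adjusted p = 0.0415), which was lost in 6 of 12 alternatives. AXL (−0.06) and MSN (−0.12) did not pass with all libraries. ERBB2, also listed as low in a triple-negative line, measured 14.3 and 13.2 FPKM in the libraries labelled KO and 13.2 and 12.7 FPKM in WT. The epithelial cadherin gene CDH1 measured 0.597 and 0.625 FPKM in the libraries labelled KO and 0.177 and 0.128 FPKM in WT. ESRP1, also listed as low, measured 0.0676 and 0.0632 FPKM in the libraries labelled KO and 0.107 and 0.169 FPKM in WT. Of 7 markers of other cell types, 6 averaged under 1 FPKM, and the endothelial gene PECAM1 measured 1.36 and 1.37 FPKM in the libraries labelled KO and 0.97 and 0.985 FPKM in WT. Across the 11716 genes that averaged 1 FPKM or more over the 4 libraries, 21.6% were higher and 28.4% lower in the libraries labelled KO, together 49.9% called (limma fitted to log2(FPKM + 1), with the Benjamini-Hochberg adjusted p set to under 0.05). Without KO replicate 2, the counts were 1542 higher and 1996 lower, against 2527 and 3323 with all libraries, and without KO replicate 1 the lower count was 2069. Of all calls, 43.2% were higher with FPKM as deposited and 55.3% after median-of-ratios scaling.

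MYC encodes a transcription factor that pairs with MAX, binds E-box sequences at promoters and raises the output of genes for ribosome production, nucleotide synthesis and cell division. It sits in a wide stretch with few protein-coding genes, in which enhancers spread over long distances act on its promoter and many long noncoding RNAs (lncRNAs) are transcribed. Several of these RNAs were first described in colon, prostate or other cancers, and the stretch before MYC holds many inherited variants tied to cancer susceptibility.

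All members with more than a few fragments were lower in the libraries labelled KO, but by very different amounts. MYC itself and PVT1, the lncRNA that follows it, had 0.783 and 0.797 times their WT means. CASC8, CCAT1 and CASC19, a group of lncRNAs that start 445.8 to 547.6 kb before MYC, were lower by a factor of 2.49 to 6.73. In all distances from MYC, start means the lowest map coordinate of a gene. For these minus-strand genes and for CASC11 that is where the transcript ends, so their bodies extend from there toward MYC. The groups did not overlap, with the lower values under the KO label, in 6 of the 8 members; among all genes tested, 44.6% had groups that did not overlap in this direction, and nothing is read from the members' count because this contrast chose them. A mean of 1 FPKM or more was reached by 5 of the 8 (MYC, PVT1, CASC8, CCAT1 and CASC19) and not by CASC11, PCAT1 and POU5F1B.

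MYC (Entrez ID 4609, chr8:127735434-127742951, plus strand, coordinates as deposited, which match GRCh38) measured 24.9 and 24.9 FPKM in the libraries labelled KO, against 31.7 and 31.8 FPKM in WT. The libraries of each group were nearly identical and the groups lay clearly apart. These levels rest on 5488 and 5868 fragments in the libraries labelled KO and 6477 and 3238 in WT. The ratio of mean FPKM was 0.783, and the 4 pairings of a KO with a WT library gave ratios between 0.782 and 0.785. On the log2(FPKM + 1) scale the difference was −0.34, and after median-of-ratios scaling it was −0.28. Of the 11716 genes tested, 12.8% had a more negative difference than MYC, so its size was not unusual in this comparison. By mean FPKM, MYC ranked 2377th of 39259 genes in the libraries labelled KO and 1936th in WT.

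PVT1 (Entrez ID 5820, chr8:127794533-128101253, plus strand) starts 59.1 kb after MYC. It gives rise to spliced and circular RNAs, carries several microRNA hairpins within its span and is often gained together with MYC in tumors. It measured 7.26 and 7.65 FPKM in the libraries labelled KO, against 8.90 and 9.80 FPKM in WT, and the groups did not overlap. The ratio of means was 0.797, with pairings between 0.741 and 0.859, and the log2 difference was −0.29. PVT1 stood at 0.292 and 0.307 times the FPKM of MYC in the libraries labelled KO, against 0.280 and 0.308 times in WT. These ratios overlap between the groups, so PVT1 was lower about in step with MYC. It was the lncRNA with the highest level among the members, ranking 62nd of 13421 lncRNA genes in the libraries labelled KO and 55th in WT.

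CASC8 (Entrez ID 727677, chr8:127289676-127482139, minus strand) starts 445.8 kb before MYC and is one of the cancer susceptibility candidate lncRNAs of the region. It measured 2.70 and 2.51 FPKM in the libraries labelled KO, against 6.20 and 6.79 FPKM in WT. Every KO value was far under every WT value, with ratios over the 4 pairings between 0.370 and 0.435. The fragments were 254 and 253 in the libraries labelled KO and 541 and 295 in WT, and their ratio per assigned fragment was 0.407 (95% exact interval 0.363 to 0.455, which covers counting error only). CASC8 stood at 0.108 and 0.101 times the FPKM of MYC in the libraries labelled KO, against 0.195 and 0.213 times in WT. Unlike PVT1, it was thus lower beyond the step taken by MYC. It ranked 198th among lncRNA genes in the libraries labelled KO and 87th in WT.

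CCAT1 (Entrez ID 100507056, chr8:127207382-127219268, minus strand) starts 528.1 kb before MYC. This lncRNA is known from colon cancer, where it is made from a strong enhancer region that contacts the MYC promoter. It measured 0.433 and 0.535 FPKM in the libraries labelled KO, against 2.70 and 2.15 FPKM in WT, from 59 and 78 fragments and from 341 and 135. WT values exceeded KO values by several-fold in every pairing, and the ratio of fragments per assigned fragment was 0.193 (95% exact interval 0.158 to 0.234). The log2 difference was −1.20 with a pseudocount of 1 and −2.11 with 0.1, since the larger one compresses low values. Relative to CASC8, its level was 0.161 and 0.213 times in the libraries labelled KO, against 0.436 and 0.316 times in WT, so it was lower by more than its neighbor.

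CASC19 (Entrez ID 103021165, chr8:127187785-127197627, minus strand) lies beside CCAT1 and starts 547.6 kb before MYC. It measured 0.190 and 0.533 FPKM in the libraries labelled KO, against 2.25 and 2.61 FPKM in WT. Both KO values lay far under both WT values, but they rest on 3 and 9 fragments in the libraries labelled KO and 33 and 19 in WT. The ratio per assigned fragment was 0.155 with a wide 95% exact interval of 0.0752 to 0.294. Its log2 difference was −1.34, and −2.56 with a pseudocount of 0.1. CASC19 and CCAT1 reached the mean of 1 FPKM only through WT, since their KO means were 0.361 and 0.484 FPKM.

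CASC11 (Entrez ID 100270680, chr8:127700608-127733967, minus strand) runs head to head with MYC and ends 1466 bases before it on the map, so it is the nearest member. It measured 0.0540 and 0.0631 FPKM in the libraries labelled KO, against 0.117 and 0.175 FPKM in WT. The groups did not overlap, but with 4 and 5 fragments in the libraries labelled KO and 8 and 6 in WT the ratio per assigned fragment of 0.431 had a 95% exact interval of 0.165 to 1.07. A difference from WT was therefore not detectable at this depth.

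PCAT1 (Entrez ID 100750225, chr8:127013154-127021014, plus strand), a lncRNA known from prostate cancer and the farthest member at 722.3 kb before MYC, had 1 and 0 fragments in the libraries labelled KO and 2 and 0 in WT. POU5F1B (Entrez ID 5462, chr8:127413447-127417224, plus strand), a retrogene copy of the pluripotency factor gene POU5F1 that lies within the span of CASC8, had 0 and 0 fragments in the libraries labelled KO and 3 and 0 in WT. Both genes sat at the limit of 3 fragments that a count of 0 allows, which for POU5F1B is 0.0183 and 0.0171 FPKM in the libraries labelled KO and 0.0198 and 0.0397 FPKM in WT. No direction can be read for either. POU5F1 itself, on chromosome 6 and near-identical to its copy, had 10 and 9 fragments in the libraries labelled KO and 7 and 12 in WT. Few fragments were thus assigned to either gene, and how reads that fit both were handled is not given.

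**Figure D1:**
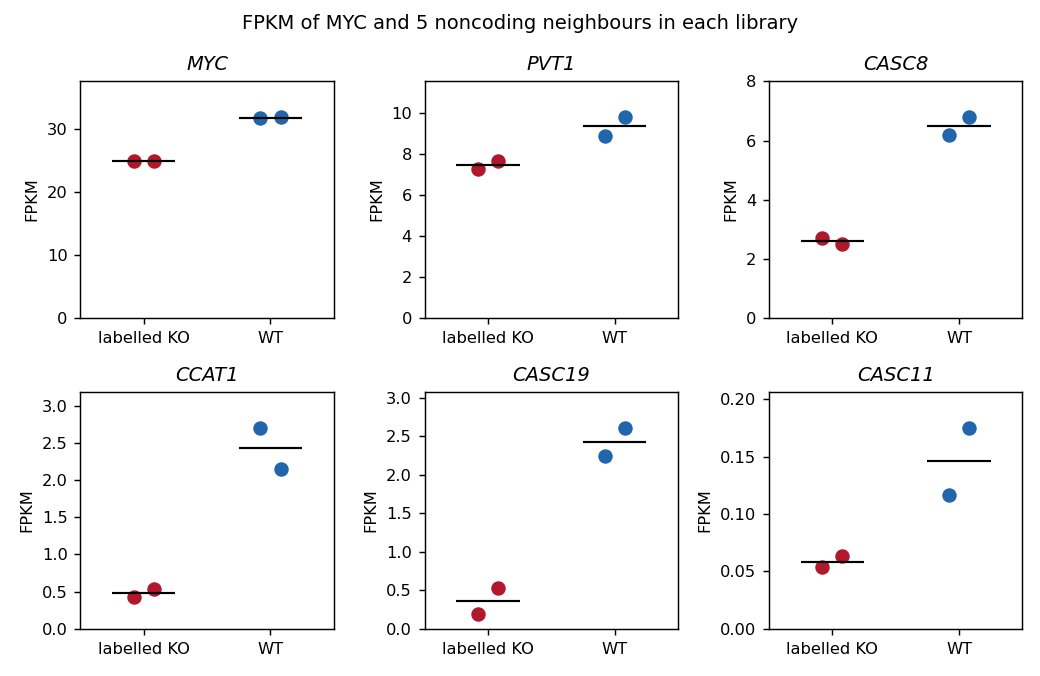
FPKM (vertical axes, linear and starting at 0, 1 scale per gene) of MYC and 5 lncRNAs in each library labelled KO (red) and WT (blue); horizontal lines are means of 2 libraries. MYC at 24.9 against 31.8 FPKM and PVT1 at 7.45 against 9.35 FPKM are modestly lower, while CASC8, CCAT1 and CASC19 are lower by a factor of 2.49 to 6.73.

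By level, the order of members in WT was MYC, PVT1, CASC8, then CASC19 and CCAT1, then CASC11. In the libraries labelled KO the order was the same except that CCAT1 stood above CASC19. CASC19 and CCAT1 averaged 0.361 ± 0.242 and 0.484 ± 0.0722 FPKM in the libraries labelled KO and 2.43 ± 0.248 and 2.42 ± 0.392 FPKM in WT (SD, n = 2 libraries), so these neighbors in the order differed by less than their spread in both groups. All other steps among the 6 genes exceeded the spread of the libraries. PCAT1 and POU5F1B came last and could not be ordered.

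Among members past the filter, the change was small in MYC and PVT1 and larger in the genes that start farther away. Those farther genes all lie before MYC. A trend with distance was not tested, because these values chose the members. By start position, PVT1 at 59.1 kb after MYC had nearly its ratio (0.797 against 0.783 for MYC). CASC11, which starts 34.8 kb before MYC and reaches to 1466 bases from it, had a ratio of mean FPKM of 0.401 from very few fragments. Among members past the filter, the lower ratios belonged to genes that start 445.8 to 547.6 kb before MYC. Within that cluster the ratio of mean FPKM was 0.401 for CASC8, 0.200 for CCAT1 and 0.149 for CASC19, in the order of their distance. The intervals of CCAT1 and CASC19 overlap. Beyond the cluster, PCAT1 had too few fragments to place.

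The edges of this cluster could not be placed. Between PCAT1 and CASC11, the lncRNAs PCAT2, PRNCR1, CASC21, CCAT2 and LOC105375754 had at most 8 fragments in any library. An unnamed entry with Entrez ID 105375752, which starts 595.4 kb before MYC, had 4 and 9 fragments in the libraries labelled KO and 23 and 10 in WT, or 0.0230 and 0.0485 FPKM against 0.143 and 0.125 FPKM. Farther out, LOC101927657, 1409.9 kb before MYC, had 2 and 2 fragments in the libraries labelled KO and 42 and 21 in WT. Both entries were lower in the libraries labelled KO with no overlap of the groups, lie outside the stretch of CASC8, CCAT1 and CASC19, and were singled out after their values were seen.

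**Figure D2:**
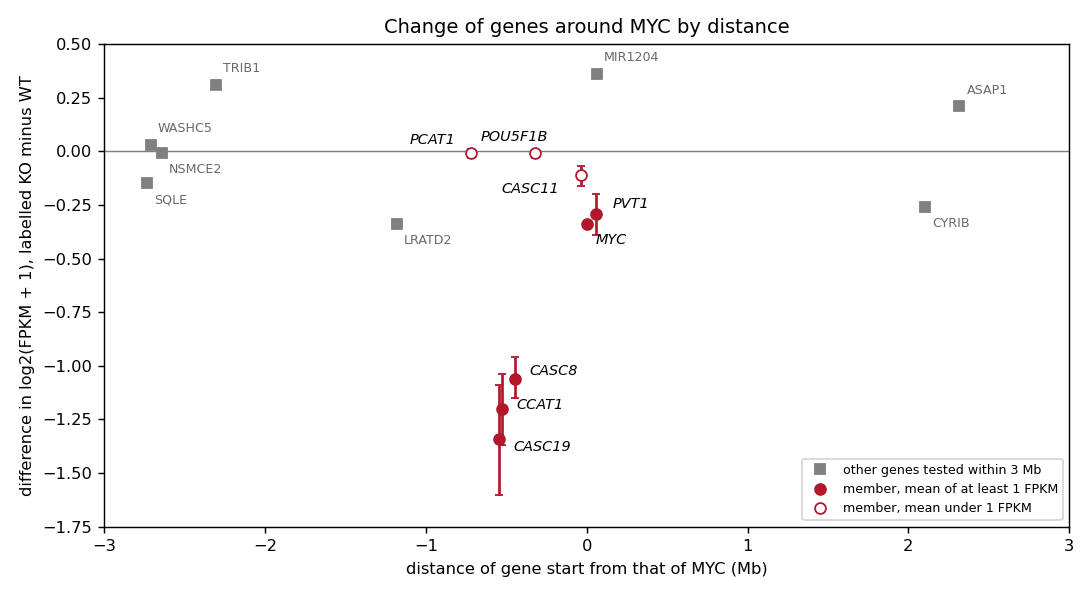
Difference in log2(FPKM + 1), libraries labelled KO minus WT (vertical axis), against the distance of each gene's start from that of MYC in Mb (horizontal axis); red circles are the members, open where the mean is under 1 FPKM, with bars over the 4 pairings of a KO and a WT library, and gray squares are the 8 other genes tested within 3 Mb. CASC19, CCAT1 and CASC8, at −1.34, −1.20 and −1.06, stand below all other genes shown, and MYC and PVT1 lie at −0.34 and −0.29.

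How each gene is modeled in the table bears on these values. The deposited exons cover 100% of the exon bases of MYC in GENCODE 29, but 76.5% for CASC8, 35.3% for PVT1, 32.5% for CASC11, 11.8% for PCAT1 and 1.46% for CASC19, whose model is 324 bases long. Fragments from other exons of these lncRNAs were not counted for them. The share was 38.6% for POU5F1B, and CCAT1 was not found by name in GENCODE 29. The deposited model of MYC is 4518 bases long, against 3001 in GENCODE 29, and its FPKM is scaled to the longer model. No exon of a member overlaps an exon of another gene in the table. CASC8 spans CCAT2 and POU5F1B, and PVT1 spans MIR1204 and other genes, and as the strand setting of the counting is not given, unspliced or antisense RNA cannot be told apart there.

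Among 13421 lncRNA genes, 528 averaged 1 FPKM or more, and 90 of these were higher and 188 lower in the libraries labelled KO (52.7% called, median log2 difference −0.11). Only 4 of the 528 had a more negative difference than CASC19, 6 than CCAT1 and 11 than CASC8, while 155 had one more negative than PVT1. These positions describe values that chose the members.

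The other genes around MYC did not share a direction. Of 47 further genes that start within 3 Mb of MYC, 15 had no fragment in any library, 24 had some but a mean under 1 FPKM, and 8 were tested. Of the 8, 2 were higher and 2 lower, which is 50% called against 49.9% of all genes tested, and their median difference was 0.01. Before MYC, LRATD2, the nearest of them on that side at 1183.0 kb, measured 2.26 and 2.38 FPKM in the libraries labelled KO, against 3.43 and 2.99 FPKM in WT (log2 difference −0.34, SE 0.071, limma adjusted p = 0.00505). TRIB1, a pseudokinase that steers protein breakdown, was higher, with 6.70 and 6.93 FPKM against 5.31 and 5.34 FPKM (0.31, adjusted p = 0.00292). SQLE, an enzyme of cholesterol synthesis, WASHC5, a subunit of the endosomal WASH complex, and NSMCE2, a SUMO ligase, did not pass the threshold (−0.15, 0.03 and −0.01).

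After MYC, the nearest protein-coding gene in the table starts 1970.5 kb away. This gene, the gasdermin GSDMC, had a mean under 1 FPKM in both groups, at 0.0992 and 0.136 FPKM in the libraries labelled KO and 0.375 and 0.496 FPKM in WT. CYRIB, which binds RAC1 and restrains actin protrusions, was lower with 17.3 and 17.4 FPKM against 21.0 and 21.1 FPKM (−0.26, adjusted p = 0.00394). ASAP1, a GTPase-activating protein for Arf proteins, was higher (0.21, adjusted p = 0.0482). That call was lost without KO replicate 1 (adjusted p = 0.128), KO replicate 2 (0.196) or WT replicate 2 (0.181), with no filter on low values (0.166) and in the fit without trend or robust options (0.0666). MIR1204, a microRNA hairpin inside PVT1, had 12 and 6 fragments in the libraries labelled KO and 7 and 2 in WT and did not pass (0.36, adjusted p = 0.556).

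Along the whole chromosome, 57 of 406 tested genes were higher and 144 lower, 49.5% in all, with a median of −0.09. Without the members, the 6 tested genes of the 5 Mb window that holds MYC had a median of 0.01, and the 6 of the next window 0.05. The dense window at 140 to 145 Mb, near the end of the arm, stood apart: 45 of its 71 genes were lower and 4 higher, with a median of −0.28. The part that chromosome copy number has in any of these values was not tested.

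**Figure D3:**
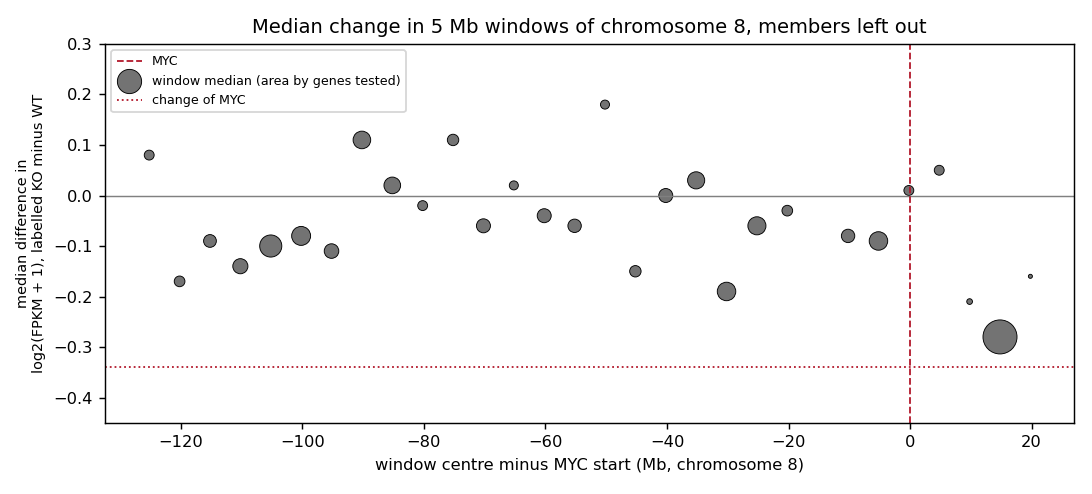
Median difference in log2(FPKM + 1), libraries labelled KO minus WT (vertical axis), in 5 Mb windows of chromosome 8 placed by the distance of their centre from MYC in Mb (horizontal axis), with the members left out and marker area proportional to the number of genes tested. The window holding MYC lies at 0.01, well above the difference of MYC itself (dotted line, −0.34), and the largest marker, near the end of the arm, lies at −0.28.

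Known outputs of the MYC protein were lower more often than genes at large. Of 86 genes listed as activated by MYC, 83 were tested, 49 were lower (59.0%, against 28.4% of all genes tested) and 8 higher, and their median difference was −0.23 against −0.04 over all genes. Without the listed genes on chromosome 8, 47 of 81 were lower. The 8 rises became 13 under median-of-ratios scaling and 5 without KO replicate 2. These lists were drawn up with earlier results of these data known and were not tested as sets. In bulk RNA, fewer cells of a kind and less RNA per cell cannot be told apart.

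The genes for the nucleolus and ribosome production were the most uniform group, with 21 of 28 lower, 0 higher and a median of −0.28. RRP9, a protein of the U3 small nucleolar RNP, measured 24.5 and 22.7 FPKM in the libraries labelled KO, against 36.8 and 36.5 FPKM in WT. NOP2, an RNA methyltransferase of the large subunit, measured 38.3 and 37.6 FPKM against 51.8 and 53.2 FPKM. BOP1, a large-subunit processing factor, showed the largest fall of the group (−0.75, adjusted p = 0.000132), but it lies on chromosome 8 in the window at 140 to 145 Mb, whose median was −0.28. Nucleolin, encoded by NCL (−0.11), and NOP56 (−0.08), also classic targets, did not pass, although NCL did without WT replicate 2 (adjusted p = 0.0196).

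Targets in nucleotide synthesis and metabolism divided, with 15 of 29 lower and 5 higher. ODC1, which starts polyamine synthesis, measured 27.9 and 28.3 FPKM in the libraries labelled KO, against 45.5 and 45.7 FPKM in WT (−0.68, SE 0.051, limma adjusted p = 4.61e-05). SRM, which makes spermidine further along that pathway, was lower as well (log2 difference −0.51). NME2, a nucleoside diphosphate kinase, differed by −0.53, a value that is uncertain because an annotated NME1-NME2 read-through gene overlaps it. Genes of glucose use did not share a direction. The glycolytic enzyme PKM had 1000 and 988 FPKM in the libraries labelled KO, against 628 and 614 FPKM in WT, and the glucose transporter SLC2A1 (0.54) and the enzyme ENO1 (0.31) were higher too, all with limma adjusted p of at most 0.00209. HK2, the hexokinase that starts glycolysis, was lower, with 13.8 and 13.9 FPKM in the libraries labelled KO, against 19.5 and 18.4 FPKM in WT (−0.42, adjusted p = 0.000598), and LDHA did not pass (0.12, adjusted p = 0.0984) except after median-of-ratios scaling (0.19, adjusted p = 0.0199).

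Of 26 tested targets in the cell cycle, translation and protein folding, 13 were lower and 3 higher. The co-chaperone FKBP4 measured 27.5 and 27.7 FPKM in the libraries labelled KO, against 52.9 and 51.3 FPKM in WT, and the mitochondrial co-chaperonin HSPE1 measured 47.7 and 43.6 FPKM against 74.6 and 83.9 FPKM. CDC25A, a phosphatase that activates cyclin-dependent kinases, was lower by −0.54 (adjusted p = 0.000344). The cap-binding factor EIF4E (0.51) and the telomerase subunit TERT (0.35, 2.17 ± 0.0618 FPKM against 1.5 ± 0.109 FPKM, SD, n = 2) were higher. CCND2, a D-type cyclin under the filter, had 0.114 and 0.1 FPKM in the libraries labelled KO, against 0.45 and 0.459 FPKM. EIF4A1 is listed at 0 in every library, which need not reflect its expression.

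Genes listed as repressed by MYC were mostly higher: 11 of 17 tested (64.7%, against 21.6% of all genes), with 3 lower and a median of 0.35. CDKN1A, the p21 inhibitor of cyclin-dependent kinases, measured 25 and 22.7 FPKM in the libraries labelled KO, against 10.8 and 12.0 FPKM in WT (1.01, SE 0.071, adjusted p = 3.41e-05). THBS1, an inhibitor of vessel growth, had 328 and 339 FPKM against 112 and 88.1 FPKM, and the integrin chain ITGB1 differed by 0.93. CLU, a secreted chaperone (−0.59, on chromosome 8), GADD45B (−0.25) and CDKN1B, the p27 inhibitor (−0.17), were lower. The call of CDKN1B was lost without either KO library or WT replicate 2 (adjusted p up to 0.189) after median-of-ratios scaling (0.138) and with no filter on low values (0.0944). That of GADD45B was lost without KO replicate 1 (0.13) and with no filter (0.0817).

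**Figure D4:**
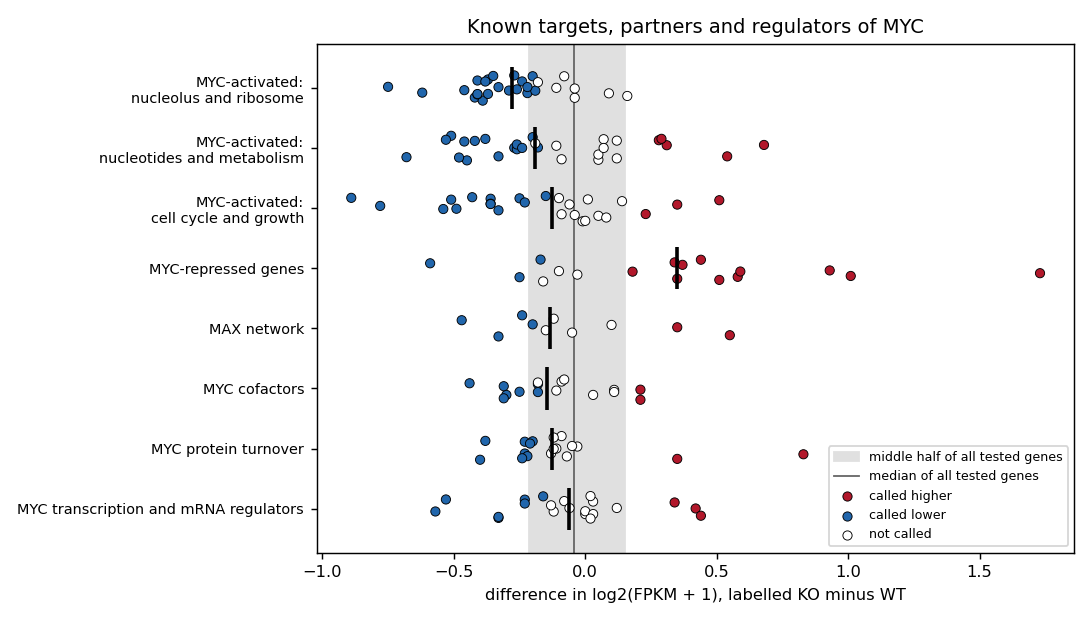
Difference in log2(FPKM + 1), libraries labelled KO minus WT (horizontal axis), for each tested gene of 8 lists (rows); red points were called higher, blue lower and white not called, black bars are list medians, and the gray band and line are the quartiles and median of all 11716 genes tested. The row of nucleolar and ribosome targets lies mostly to the left, with a median of −0.28, and the MYC-repressed row mostly to the right, with a median of 0.35.

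The E-box CACGTG, the sequence that MYC and MAX prefer, was looked up in RefSeq promoter windows (GRCh38.p14, 250 bases before to 50 after the gene start; the motif reads the same on both strands). It was found in 13 of the 38 windows of activated targets called lower (34.2%), in 10 of 31 windows of those tested but not called lower (32.3%), and in 968 of 9241 windows of all tested genes (10.5%). In all 27305 windows of that length its share was 7.43%. The windows of MYC-repressed genes held it in 4 of 12 cases (33.3%). Its share was thus about equal in activated targets that were lower, in the other activated targets and in the repressed genes. Of the named targets that hold it, 3 are shown with the motif in capitals, which begins at position −22 relative to the start in HSPE1 (chr2:197500129-197500428, plus strand), at −5 in RRP9 (chr3:51941855-51942154, minus strand) and at −199 in SRM (chr1:11059969-11060268, minus strand).
HSPE1: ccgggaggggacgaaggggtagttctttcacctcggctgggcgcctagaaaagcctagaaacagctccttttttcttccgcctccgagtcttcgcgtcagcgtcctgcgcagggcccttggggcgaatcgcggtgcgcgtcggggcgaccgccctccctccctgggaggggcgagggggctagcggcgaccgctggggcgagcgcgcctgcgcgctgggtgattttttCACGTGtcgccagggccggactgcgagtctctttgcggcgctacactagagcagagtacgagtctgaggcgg
RRP9: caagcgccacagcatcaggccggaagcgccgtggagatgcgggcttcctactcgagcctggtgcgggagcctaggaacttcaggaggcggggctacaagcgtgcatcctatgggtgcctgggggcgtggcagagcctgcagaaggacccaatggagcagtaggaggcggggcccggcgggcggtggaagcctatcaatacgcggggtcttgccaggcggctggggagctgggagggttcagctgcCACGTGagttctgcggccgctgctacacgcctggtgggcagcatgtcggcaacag
SRM: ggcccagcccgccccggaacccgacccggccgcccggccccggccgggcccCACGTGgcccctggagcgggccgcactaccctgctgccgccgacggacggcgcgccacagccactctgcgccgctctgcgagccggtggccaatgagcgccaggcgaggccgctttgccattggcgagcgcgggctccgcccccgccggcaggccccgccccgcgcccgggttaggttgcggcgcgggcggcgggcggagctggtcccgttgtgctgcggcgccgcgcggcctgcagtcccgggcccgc
A match describes letters in the window and does not show binding.

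Counting both directions together, the partners and regulators of MYC changed about as often as other genes. Lower calls were more common among them (40.0%, against 28.4% of all genes tested) and higher calls less common (13.8%, against 21.6%). Without the listed genes on chromosome 8, 24 of 63 were lower and 9 higher. The partners and regulators were not tested as a set. Of 65 tested, 26 were lower and 9 higher, 53.8% called against 49.9% of all genes; the 35 calls became 15 without KO replicate 2, 22 without KO replicate 1 and 23 with no filter on low values. In the MAX network 4 of 10 were lower and 2 higher. MAX, the obligate partner, measured 11.2 and 10.9 FPKM in the libraries labelled KO, against 12.3 and 13.2 FPKM in WT (−0.20, adjusted p = 0.0258), a call lost without either KO library (adjusted p = 0.107 and 0.177), without WT replicate 2 (0.0596), with no filter on low values (0.0819) and after median-of-ratios scaling (0.0912). MXI1, an antagonist that competes for MAX, did not pass (−0.12). MXD4, another such antagonist, was lower (9.72 ± 0.680 FPKM against 13.9 ± 1.01 FPKM, SD, n = 2), as was MLX (−0.33). MLXIPL, a glucose-responsive partner of MLX, was higher (1.43 ± 0.0694 FPKM against 0.662 ± 0.0518 FPKM). MYCN was listed at 0 and MYCL had a mean under 1 FPKM, so MYC was the only family member past the filter.

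Of 16 cofactors, 7 were lower (43.8%, against 28.4% of all genes tested) and 2 higher (12.5%, against 21.6%). The ATPases RUVBL1 (23.6 ± 0.968 FPKM against 32.4 ± 0.00529 FPKM) and RUVBL2 (−0.31) of chromatin remodeling complexes were lower. Of 18 genes for turnover of the MYC protein, 8 were lower (44.4%) and 2 higher (11.1%). HUWE1, a ubiquitin ligase that can target MYC, measured 37.2 and 38.2 FPKM in the libraries labelled KO, against 23.1 and 18.9 FPKM in WT (0.83, adjusted p = 0.000453). FBXW7, which recognizes phosphorylated MYC for breakdown, was also higher (0.35), and CIP2A, which shields MYC from dephosphorylation, was lower (−0.40). The RNA table holds no protein level of MYC.

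Among 21 regulators of MYC transcription and mRNA, 7 were lower (33.3%, against 28.4% of all genes tested) and 3 higher (14.3%, against 21.6%). Without the 2 regulators on chromosome 8, 5 of 19 were lower and 3 higher. CTNNB1, beta-catenin, which acts with TCF factors at MYC, measured 123 and 124 FPKM in the libraries labelled KO, against 94.6 and 89.4 FPKM in WT (0.42, adjusted p = 0.000471). SMAD3, which mediates TGF-beta signals that repress MYC, was higher by 0.34. The mRNA-binding proteins went both ways: IGF2BP3 was higher (0.44) and IGF2BP2 lower (−0.57), and E2F4 was lower by −0.33. E2F4 is a repressor of cell cycle genes.

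The protein-coding genes whose pattern over the 4 libraries was most like that of MYC were CHCHD3, ADI1, PTPRS, DUSP1 and RFTN1, taken from 5099 genes that averaged 10 FPKM or more. The measure was the root mean square difference between log2(FPKM + 1) values after each gene's mean was removed, and it ran from 0.00653 for CHCHD3 to 0.00979 for RFTN1. CHCHD3, a protein of mitochondrial cristae, had 31.6 and 31.9 FPKM in the libraries labelled KO, against 40.6 and 40.6 FPKM in WT.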

How the data were processed

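RNA of MDA-MB-231 cells was sequenced in 4 libraries, grouped by title as 2 KO and 2 WT. The authors deposited 1 table of FPKM values with exon coordinates, per the file headers, and gene length in bases, the authors' own column; STAR, DESeq2 and Subread appear, per the submitters' processing notes, without role or version. The sources used here do not give the genome build, the annotation or the strand setting. Dividing FPKM times length by its smallest value above 0 in each library gave whole fragments for 100% of values (tolerance 0.001), and depth (22503981 to 52163811) is their sum, on the assumption that this smallest value is 1 fragment. Entrez IDs were looked up in RefSeq (GRCh38.p14), which named 37708 genes (96.0%), and 98.4% of those had a start or end within 1000 bp of that assembly. Columns of other samples numbered 0.

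The test was limma (version 3.58.1, R 4.3.3; trend and robust), run on log2(FPKM + 1) of all genes averaging 1 FPKM or more, Benjamini-Hochberg adjusted, threshold 0.05; fold changes on this scale understate low genes. The members and lists were chosen with earlier results of these data known. Genes were named by rule: all members, up to 3 falls and 3 rises per list past the threshold without overlap of the groups, MAX, MXI1, POU5F1, RIOX2, tested genes within 3 Mb of MYC, and the 5 most like MYC; NCL, NOP56, HK2, LDHA, CCND2, EIF4A1, MYCN, MYCL, GSDMC and the line markers were named besides. A gene that the rule names among the cofactors is not reported here. Intervals are exact (Clopper-Pearson, SciPy 1.17.1) and cover counting error only. Replicates differed beyond counting noise (chi-square divided by its degrees of freedom was 5.69 for KO and 8.23 for WT). All libraries were kept. Tested on simulated data for KO against WT over 11718 genes, the fit called 89.8% of genes lowered by 0.5 (log2) and 0.165% of unchanged genes. The simulation changed 200 genes and gave every gene the same dispersion. In the data 49.9% of genes were called, so these rates need not hold for these libraries. Alternatives were a pseudocount of 0.1, no filter, a mean of at least 5 FPKM, median-of-ratios scaling, voom, no trend or robust, blocking on replicate number, and leaving out 1 library at a time.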

Additional observations from a re-analysis of the deposited data

How the results depend on the processing

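MYC was lower under the KO label in all 12 alternatives, at −0.28 with median-of-ratios scaling, −0.35 with a pseudocount of 0.1 and with voom, and −0.34 to −0.34 with each library left out. PVT1, CASC8 and CCAT1 kept their sign wherever they were tested, as did CASC19, which fell under the filter without WT replicate 2; a mean of at least 5 FPKM removed CASC8, CCAT1 and CASC19. On fragments with voom the differences were −2.77 for CASC19, −2.36 for CCAT1 and −1.30 for CASC8. With no filter, 23 partners and regulators were called and 1 MYC-repressed gene was lower; with median-of-ratios scaling, 13 activated targets were higher. With each library left out, all genes called higher ran between 1542 and 3104 and lower between 1996 and 3973, activated targets higher between 5 and 10, MYC-repressed genes lower between 1 and 4 (against 3), and partners and regulators between 15 and 41. In those fits the lone library is assumed to vary like the other group.

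The labels give no shared culture or day, and same-numbered libraries deviated in opposite ways (r = −0.225 across genes, 2 pairs), so same-numbered libraries were not paired. With a replicate block, 2348 genes were higher and 3029 lower, MYC was at −0.34, MIR1204 was called (0.36, adjusted p = 0.00258), and the calls of MAX (0.0522) and CDKN1B (0.0765) were lost; with a crossed block, added after the data were seen, 2839 were higher and 3821 lower. Uncalled genes near 0 changed sign: NSMCE2 with median-of-ratios scaling (0.02), without KO replicate 2 (0.02) and without WT replicate 2 (0.03), WASHC5 without WT replicate 2 (−0.01) and MIR1204 without KO replicate 1 (−0.03). With each library left out they ran between −0.05 and 0.03 for NSMCE2, −0.01 and 0.06 for WASHC5, and −0.03 and 0.75 for MIR1204. The causes were not tested. Depth limits CASC19, CASC11, PCAT1 and POU5F1B, which had 33 or fewer fragments in any library.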

Other observations

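Other POU-domain genes were scarce in this line. Of 14 listed, POU2F1, a broadly expressed octamer-binding factor, was the only one past the filter, at 2.54 and 2.55 FPKM in the libraries labelled KO and 3.01 and 2.69 FPKM in WT, and it did not pass the threshold (log2 difference −0.12, limma adjusted p = 0.168), although it did without WT replicate 2 (0.0289) and with voom. POU2F2, best known from B cells, had 0.561 and 0.551 FPKM in the libraries labelled KO, against 1.15 and 1.12 FPKM in WT, and was chosen after its values were seen.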
